A study of Mus musculus with 101 samples.

Results

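The F2 XX germ cells are 15 RNA libraries of FACS-enriched primordial germ cells (PGCs), each from the ovaries of 1 mouse embryo 2 generations after benzo[a]pyrene (BaP) or vehicle was given. They were chosen by their labels as the columns of generation F2 and female sex. The series holds 48 XX and 53 XY embryos of 3 generations in all, so these are 15 of its 48 XX embryos. Of the 15, 9 descended from exposed F0 dams (3 each at 0.033, 0.2 and 2 mg/kg-day) and 6 from dams given vehicle alone.

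The mice were of the OG2 line, which carries an EGFP transgene driven by Pou5f1 regulatory sequence, on a C57BL/6J background. Pregnant F0 females received BaP in sesame oil by mouth each day, and the control group received the oil alone. Dosing ran from E6.5 to E15.5 for the lines that gave F2 and F3 embryos, but stopped at E11.5 for dams whose F1 embryos were sampled. The parents of each F2 embryo were F1 animals from different litters of 1 dose lineage, and its gonads were taken at E13.5 with the mesonephros attached. EGFP-positive cells were sorted, and cDNA was primed with oligo(dT), so the sample is enriched and not pure: any other cell in the gate contributes to the library. All 4 groups share the transgene and the strain, and differ in the dose given to the F0 dam (none, or 1 of the 3 doses above). The 15 embryo names hold 15 different numbers before the point, and 1 XY embryo with each number was also sequenced. That number was read as the dam, so that each pair would share a litter, which is an inference from the names. Each F2 embryo arose from germ cells that lay in F1 fetuses, its later mother and father, when the F0 dams received BaP or oil. The comparison asks whether the transcripts of its own germ cells differ by lineage, and whether such differences follow the dose.

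At this age XX germ cells stop dividing and enter meiotic prophase: BMP and retinoic acid signals switch on Stra8 and the oogenic regulator Zglp1, chromosomes take on cohesin and the synaptonemal complex, and pluripotency genes are shut down. XY germ cells of the same age take another path, through Nodal and Nanos2, into mitotic arrest.

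The deposited values are normalized counts, from which whole reads were recovered. Recovered reads per embryo ran from 6362762 to 9397510 with a median of 7665765 (6393504 to 9397510 in vehicle, 6362762 to 8334836 in exposed embryos). A single read is worth 0.103 to 0.169 on the normalized scale, so values under about 1 rest on few reads. Between 13952 and 14383 of the 15423 genes in the table had a read in each embryo.

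Apart from Xist, the germ cell and sex markers given here matched the label. Ddx4, the germ cell helicase, had normalized counts of 357 to 576 in vehicle embryos (median 406) and 363 to 679 in exposed ones. Dazl, which licenses germ cells for meiosis, lay between 1050 and 1780 in all 15. Zglp1, which drives the oogenic fate, lay between 121 and 184. Nanos2, the XY fate gene, and the Y-linked Eif2s3y were at 0 in all 15 embryos, and Ddx3y was at 0 in 14 and at 0.131 (1 read) in vehicle embryo C4988.3. Summed over 6 Y-linked genes, a value above 0 was seen in 2 vehicle embryos (0.131 and 0.103). Xist was low and did not mark sex. Its mean was 0.621 in XX and 0.42 in XY vehicle embryos, and 0.5 and 0.64 in exposed ones.

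One vehicle library stood apart. The median correlation of D3133.2 with the other 14 embryos (Pearson, log2 values of 8346 genes) was 0.931, against 0.968 to 0.985 for each of the others. Its genes of meiotic prophase summed to 2200 normalized counts, compared with 4510 to 7280 in the other 5 vehicle embryos, and its Stra8 was 93, compared with 273 to 602. Because it is 1 of only 6 controls, values without it are given beside many of the results. Pairs of vehicle embryos correlated at 0.904 to 0.99 (median 0.978, 15 pairs), and pairs of a vehicle with an exposed embryo at 0.9 to 0.99 (median 0.977, 54 pairs). Pairs of the same dose correlated at 0.969 to 0.987 (median 0.975, 9 pairs), inside the range of pairs of different doses (0.948 to 0.988, median 0.973, 27 pairs).

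By limma, no gene passed an adjusted p of 0.05 in any comparison of exposed with vehicle F2 XX embryos, nor for the order of doses. Of 13083 genes, 0 (0%) were called at any single dose, for all doses at once (the mean of the 3 dose differences) or for the dose slope (log2 change per 10-fold dose within the 9 exposed embryos). The lowest adjusted p was 1 at 0.033, 1 at 0.2, 0.81 at 2 mg/kg-day, 0.924 for all doses and 0.973 for the slope, so the limma adjusted p of each gene named below was at least 0.81 and none passed the correction. Their log2 differences are therefore given as values with a standard error (SE), from 3 exposed and 6 vehicle embryos at a dose and from 9 and 6 for all doses. At an unadjusted p under 0.05 limma counted 444, 317 and 603 genes at the rising doses, 476 for all doses and 442 for the slope, each below the 654 that make up 0.05 of the genes tested. This did not hold in all limma settings: with log10 reads as a covariate the counts were 946 at 2 mg/kg-day and 800 for all doses, and with the 15 XX embryos fitted alone 800 and 710 of 12784. Upper quartile scaling gave 682 of 13075 at 2 mg/kg-day. In the other direction, the limma fit of all generations gave 140 of 13288 for all doses. The quasi-likelihood test of edgeR counted 432, 310, 637, 561 and 483 in the same order, its likelihood ratio test 460, 365, 687, 624 and 538, and DESeq2 458, 338, 658, 596 and 515. Neither edgeR test called a gene. DESeq2 called 1, Cpa3, for all doses (adjusted p = 0.00608): this mast cell protease was at 16 in vehicle embryo D2991.1 and at 0 in the other 14, so the call rests on 1 library.

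A looser rule, 1.5-fold with an unadjusted p under 0.05, counted by limma 94 genes higher (0.718%) and 177 lower (1.35%) at 0.033 mg/kg-day. At 0.2 mg/kg-day it counted 68 higher (0.52%) and 127 lower (0.971%), and at 2 mg/kg-day 83 higher (0.634%) and 277 lower (2.12%). For all doses it counted 26 higher (0.199%) and 70 lower (0.535%), and for the slope 44 rising (0.336%) and 40 falling (0.306%). Upper quartile scaling gave 54 and 342 at 2 mg/kg-day and 17 and 92 for all doses. The limma fit of all generations gave 8 and 48 of 13288 genes for all doses. A pseudocount of 0.1 gave 44 and 129 for all doses and 79 and 110 for the slope, and a pseudocount of 1 gave 9 and 23, then 26 and 11. The likelihood ratio test of edgeR counted 116 higher and 203 lower, 73 and 186, then 81 and 418 at the rising doses, 40 and 285 for all doses, and 117 and 124 for the slope. For all doses the quasi-likelihood test gave 32 and 226, and DESeq2 35 and 225. Single libraries moved these counts. With 1 embryo left out, those higher and lower ran from 52 to 257 and 96 to 327 at 0.033, 53 to 138 and 77 to 187 at 0.2, and 46 to 224 and 133 to 434 at 2 mg/kg-day. For all doses they ran from 17 to 51 and 59 to 155, and for the slope from 17 to 169 and 14 to 141. Without D3133.2 the number at p under 0.05 was 783 at 0.033, 196 at 0.2 and 274 at 2 mg/kg-day, and 309 for all doses. Without D2991.1 it was 1075 at 2 mg/kg-day and 758 for all doses, without C4988.3 it was 515 at 0.2 mg/kg-day, without D1040.2 191 at 0.2 mg/kg-day, without D2256.3 196 at 0.033 mg/kg-day and 174 for the slope, and without D3136.2 1118 for the slope. The 3 dose comparisons share the same 6 controls and are therefore given side by side.

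Most genes of meiotic prophase had values below vehicle at the lowest dose and above it at the other doses. Of 39 tested, 32 were lower than vehicle at 0.033 mg/kg-day, while 37 were higher at 0.2 and 35 at 2 mg/kg-day. The median log2 difference was -0.33, 0.47 and 0.37, beside 0.01, 0 and -0.01 over all 13083 genes. For the slope 36 of 39 were positive, with a median of 0.37 per 10-fold dose against -0.01 over all genes. None of the 39 was called, and the number at p under 0.05 was 3 (all lower), 2 (both higher), 1 (higher) and 7 (all positive slopes), beside 444, 317, 603 and 442 of all 13083 genes. Part of this rests on D3133.2: without it the medians were -0.44, 0.27 and 0.1, with 15 genes lower at p under 0.05 at the lowest dose and 0 in either direction at the others, and the median slope, an estimate that does not use the controls, stayed at 0.37. The controls do enter its variance, and without D3133.2 12 slopes in place of 7 were positive at p under 0.05. The median at 0.033 mg/kg-day was -0.12 without D2256.3 and -0.5 without D3136.2. At 2 mg/kg-day it was 0.04 without D1669.5 and 0.67 without D4028.2, with median slopes of 0.21 and 0.54. Summed over the 40 list genes in the table, embryos had 3520, 3630 and 6050 normalized counts at 0.033, 7870, 5040 and 6370 at 0.2, and 8500, 6320 and 5230 at 2 mg/kg-day.

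Stra8, the gene that gates entry into meiosis (chr6:34920163-34939344, mm10), had 93 to 602 normalized counts in the 6 vehicle embryos (median 454). The 0.033 mg/kg-day embryos had 205, 99.2 and 390, those at 0.2 mg/kg-day 613, 367 and 478, and those at 2 mg/kg-day 699, 360 and 296. The log2 difference was -0.78, 0.47 and 0.29 (SE 0.53 each). Every dose overlapped the vehicle range, and without D3133.2 the differences were -1.16, 0.09 and -0.08. At the lowest dose it was -0.28 without D2256.3 and -1.27 without D3136.2.

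Rec8, the meiotic cohesin, was between 14.9 and 30.2 in vehicle embryos (median 26.2) and at 11, 7.47 and 18.5 at 0.033 mg/kg-day. It was at 25.6, 23.2 and 23 at 0.2 and at 29, 17.6 and 14.7 at 2 mg/kg-day. The log2 difference at the lowest dose was -0.98 (SE 0.38), or -0.68 without D2256.3. There, 2 of 3 embryos lay under all vehicle embryos, and the third lay inside their range. Prdm9, which marks sites of recombination, was at 4.26, 4.25 and 10.8, then 26.6, 14.3 and 18.3, then 37.6, 16.6 and 10.8 at the rising doses, beside 3.72 to 22.1 in vehicle (median 13.1). Its slope was 0.86 per 10-fold dose (SE 0.27), or 0.58 without D1669.5. The 2 mg/kg-day embryos overlap both other doses, while those at 0.033 and 0.2 mg/kg-day do not overlap each other. Figla, a transcription factor of the oocyte, had a similar set of values: 3.04, 2.32 and 11.6, then 27.1, 12.5 and 16.6, then 45.3, 11.2 and 10.8, beside 2.23 to 26.2 in vehicle (median 14.7). Its slope was 1.01 (SE 0.33), or 0.62 without D1669.5. In these genes the highest value at 2 mg/kg-day belonged to D1669.5 and the highest at 0.033 mg/kg-day to D3136.2.

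The synaptonemal complex genes had slopes of the same sign, and the 2 mg/kg-day embryos overlapped those of the other doses. In Sycp1 and Sycp2 the embryos at 0.033 mg/kg-day lay just below those at 0.2 (at most 244 beside at least 246, and 18.2 beside 19.2). Sycp3, of its lateral element, had 123 to 1060 normalized counts in vehicle embryos (median 631), 295, 313 and 799 at 0.033, 1160, 508 and 881 at 0.2, and 1250, 933 and 628 at 2 mg/kg-day. Its slope was 0.6 (SE 0.31). Sycp2 of the same element had a slope of 0.75 (SE 0.3), Tex12 of the central element 0.64 (SE 0.27), Syce1 0.37 (SE 0.19) and Sycp1 of the transverse filament 0.41 (SE 0.27). Tex101, a surface protein of germ cells, was at 39.8, 30 and 113 at 0.033 mg/kg-day beside 40.1 to 208 in vehicle (log2 difference -1.11, SE 0.46, or -0.73 without D2256.3). Msh5, needed for crossing over, was at 14.5, 7.91 and 14 at 0.2 mg/kg-day beside 4.83 to 10.1 in vehicle (log2 difference 0.63, SE 0.3). In both genes 2 embryos of that dose lay outside the vehicle range and 1 inside it.

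**Figure D1:**
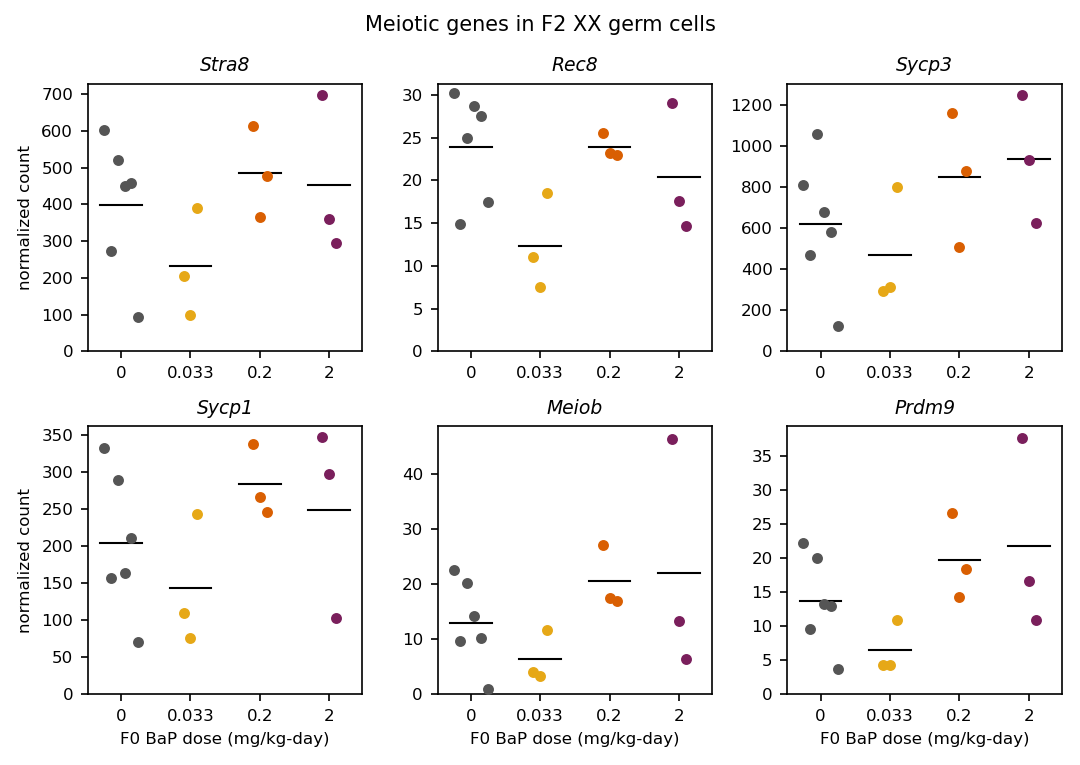
Normalized counts of 6 genes of meiotic prophase (vertical axes from 0) in each F2 XX embryo, by dose of the F0 dam in mg/kg-day, where 0 is vehicle, each point is 1 embryo and each line a group mean. Exposed and vehicle embryos overlap in every panel, with Stra8 between 93 and 602 in vehicle and between 99.2 and 699 in exposed embryos.

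BMP response and oogenic factors showed no common direction. Of 22 tested, 9 were higher at 0.033, 14 at 0.2 and 11 at 2 mg/kg-day, with medians of -0.08, 0.11 and -0.01. Msx1, a homeobox gene that BMP induces, was at 6.69, 3.61 and 8.31 at 0.033 mg/kg-day beside 7.65 to 14.5 in vehicle (median 9.61), a log2 difference of -0.78 (SE 0.37), or -0.47 without D2256.3. It was at 11.3, 14.2 and 11.6 at 0.2 mg/kg-day. Only D3136.2 among the 3 at the lowest dose overlapped vehicle. Zglp1 differed by -0.07, -0.01 and 0.01.

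The Nodal pathway and other genes of the male fate had medians between -0.21 and 0.05. Of 15 Nodal pathway genes, 8, 5 and 3 were higher at the rising doses, with medians of 0.02, -0.05 and -0.21 (0.14, 0 and -0.16 without D3133.2). Tdgf1, the Nodal co-receptor Cripto, was at 0 to 1.36 in vehicle (median 0.394). It was at 0.365, 0.258 and 0.141 at 0.033, at 0.368, 0 and 0.363 at 0.2, and at 0 in all 3 embryos at 2 mg/kg-day. The log2 difference at 2 mg/kg-day was -0.83 (SE 0.34), or -0.61 without D3133.2, and ran from -5.08 to -0.51 over the other alternatives (pseudocount, minimum mean, scaling, test or model) because the values are a few reads. At least 1 vehicle embryo was also at 0, so the groups overlap. Lefty2, a Nodal antagonist, was at 0.131 to 0.481 in vehicle and at 0 to 0.852 in exposed embryos. Lefty1 was at 0.608, 0.515 and 0.423 at 0.033 mg/kg-day beside 0.414 to 1.98 in vehicle (log2 difference -0.68, SE 0.27, -1.19 to -0.5 over the alternatives), with overlap. The ligand gene Nodal lay between 0.262 and 1.98 in vehicle and 0.254 and 0.973 in exposed embryos. Acvr2a, a receptor subunit for activin and Nodal, was at 6.57 to 13.3 in vehicle (median 9.66), at 12.9, 8.5 and 13.8 at 0.033, at 14.3, 11.7 and 14.5 at 0.2, and at 12.6, 16.1 and 10.1 at 2 mg/kg-day. Over all doses it differed by 0.36 (SE 0.16), or 0.26 without D3133.2, and the groups overlap. Acvr1b had a mean under the limit of 0.5 and was not tested.

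Of 24 genes of male germ cell fate, 13, 9 and 7 were higher at the rising doses, with medians of 0.05, -0.01 and -0.15 (0.08, -0.01 and -0.08 without D3133.2). Tdrd9, a helicase of the piRNA pathway on this list, was at 0.743 to 1.8 in vehicle (median 1.14), then 0.487, 0 and 0.282 at 0.033, 0.858, 1.91 and 1.09 at 0.2, and 2.04, 1.52 and 2.03 at 2 mg/kg-day. The log2 difference at 0.033 mg/kg-day was -1.19 (SE 0.35), and the slope 0.92 (SE 0.22). All 3 embryos at the lowest dose lay below all vehicle embryos, and the values at 0.2 and 2 mg/kg-day overlap. Counts of this size are a handful of reads, and over the alternatives the difference ran from -2.21 to -0.81 and the slope from 0.66 to 1.56.

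A wider look used genes enriched in one sex, defined on 11 XY and 11 XX vehicle embryos of F1 and F3 so that no F2 control chose them. Of 1087 female-enriched genes tested, 405 (37.3%) were higher at 0.033, 706 (64.9%) at 0.2 and 631 (58%) at 2 mg/kg-day, with medians of -0.1, 0.12 and 0.07. Of 1013 male-enriched genes, 566 (55.9%), 325 (32.1%) and 353 (34.8%) were higher, with medians of 0.04, -0.11 and -0.09. Over all 13083 genes the shares were 51.4, 50.6 and 48.5%. At p under 0.05, 6 female-enriched genes were higher and 54 lower at 0.033 mg/kg-day, 35 and 6 at 0.2, and 21 and 17 at 2 mg/kg-day. Male-enriched genes numbered 30 higher and 8 lower, 3 and 32, then 7 and 65, where all genes numbered 201 and 243, 128 and 189, then 211 and 392. Without D3133.2 the female-enriched counts were 9 and 139, 12 and 5, then 5 and 9, and the male-enriched ones 57 and 9, 3 and 11, then 7 and 27. The female-enriched medians were then -0.15, 0.05 and 0, and the male-enriched ones 0.1, -0.07 and -0.03. Other single embryos turned 2 signs: the female-enriched median at 2 mg/kg-day was -0.04 without D1669.5, and the male-enriched one at 0.033 mg/kg-day -0.01 without D2256.3. Many genes of meiotic prophase are themselves female-enriched, so these values are not separate from the ones above.

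Germ cell identity and pluripotency genes were higher than vehicle in 24 of 30 at 0.033 mg/kg-day (median 0.19), and in 12 and 13 at the other doses (-0.04 and -0.05, or 0 and -0.01 without D3133.2). Prdm1, a specifier of the germ line, was at 9.26 to 18 in vehicle (median 11.8) and at 19.3, 21.4 and 15.8 at 0.033 mg/kg-day, a log2 difference of 0.6 (SE 0.2). At 0.2 it was at 10.7, 14.3 and 11.6, and at 2 mg/kg-day at 7.9, 14.5 and 11.7. Of the 3 embryos at the lowest dose, 2 lay above all vehicle embryos. Dnd1, an RNA-binding protein that germ cells need to survive, differed by -0.59 at 2 mg/kg-day (SE 0.28), with 13.1, 19.2 and 23.5 beside 19.4 to 58.3 in vehicle. The top of that range is D3133.2, and without it the difference was -0.37. Esrrb, a pluripotency receptor, differed by -0.6 there (SE 0.28), or -0.42 without D3133.2. Pou5f1, whose regulatory sequence drives the transgene used to sort, lay between 33.5 and 99.2 in vehicle (median 61.4) and between 29.3 and 63.4 in exposed embryos.

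The aryl hydrocarbon receptor, which binds BaP, switches on genes that metabolise it, and this list had no common direction. Of 36 tested, 22, 12 and 13 were higher at the rising doses, with medians of 0.06, -0.05 and -0.04. Arnt, the partner of the receptor, was at 4.78 to 12.6 in vehicle (median 6.15), at 8.4, 5.41 and 3.8 at 0.033, at 7.23, 6.96 and 5.45 at 0.2, and at 3.59, 3.93 and 2.71 at 2 mg/kg-day. All 3 embryos at 2 mg/kg-day lay below all vehicle embryos, with a log2 difference of -0.86 (SE 0.26), or -0.68 without D3133.2. Ahr itself was at 3.72 to 5.07 in vehicle (median 4.32), at 5.84, 3.99 and 4.65 at 0.033, at 6.74, 6 and 6.3 at 0.2, and at 4.19, 2.79 and 6.6 at 2 mg/kg-day. All 3 embryos at 0.2 mg/kg-day lay above all vehicle embryos (log2 difference 0.51, SE 0.27), and the other doses overlapped vehicle. Nqo1, a quinone reductase, was at 22.1, 20.6 and 11.8 at 0.033 mg/kg-day beside 6.37 to 15.6 in vehicle (log2 difference 0.63, SE 0.28), with 1 of 3 embryos inside the vehicle range. Cyp1a1, the classic target, was at 0.12 to 1.11 in vehicle with a mean below the limit for a test, and Cyp1b1 was at 1.08 to 3.31 in vehicle and at 0.846 to 2.83 in exposed embryos.

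The p53 response, apoptosis and repair lists had medians near 0. Of 36 genes of the p53 response, 25, 13 and 14 were higher at the rising doses (medians 0.11, -0.05 and -0.07, or 0.21, -0.01 and -0.04 without D3133.2). Of 46 for repair of adducts and crosslinks it was 22, 22 and 19 (medians -0.01, -0.03 and -0.03, or -0.01, 0.03 and -0.02). In the p53 response list 30 of 36 slopes were negative (median -0.1), beside 6858 of all 13083 genes (median -0.01). The median of that list at 0.033 mg/kg-day was 0.04 without D2256.3. Pmaip1, which encodes the death factor Noxa, was at 0.852, 2.19 and 0.845 at 0.033 mg/kg-day beside 0 to 0.867 in vehicle (log2 difference 0.77, SE 0.35), or 0.44 without D2256.3, the 1 embryo above the vehicle range, and up to 1.27 over the alternatives. Slx4, a scaffold for repair nucleases, was at 2.87, 3.17 and 1.86 at 2 mg/kg-day beside 3.37 to 6.21 in vehicle (log2 difference -0.63, SE 0.29), with no overlap. Ercc2, a helicase of nucleotide excision repair, was at 0.973, 0.773 and 0.282 at 0.033 mg/kg-day beside 0.517 to 2.85, with overlap (-0.89, SE 0.37, down to -1.36 over the alternatives).

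Among regulators of chromatin, medians with all embryos lay within 0.15 of 0. DNA methylation genes (18 tested) had medians of 0.04, -0.08 and -0.02 at the rising doses (0.06, 0 and 0.02 without D3133.2), imprinted genes (30) 0.15, 0.06 and 0.01, Polycomb and meiotic gatekeeper genes (29) 0.07, -0.01 and 0.03, and piRNA genes (22) -0.14, 0.14 and 0.03. Without D2256.3 the medians at 0.033 mg/kg-day were -0.03 for DNA methylation, 0.04 for imprinted and -0.04 for piRNA genes. The piRNA median at 2 mg/kg-day was -0.11 without D1669.5 and 0.24 without D4028.2. Bmi1, of Polycomb complex PRC1, was at 16.8 to 36.8 in vehicle (median 33.1), at 35.4, 39.9 and 42.4 at 0.033, at 47.1, 36.3 and 40.4 at 0.2, and at 46, 54.6 and 35.5 at 2 mg/kg-day. Over all doses it differed by 0.5 (SE 0.17), or 0.35 without D3133.2, and 3 of the 9 exposed embryos lay within the vehicle range. Apobec1, a cytidine deaminase, was at 0, 0.129 and 0.705 at 0.033 mg/kg-day beside 0.12 to 1.65 in vehicle (-0.9, SE 0.33, -1.88 to -0.6 over the alternatives). Mbd3, of the NuRD complex, differed by -0.65 at 2 mg/kg-day (SE 0.26), or -0.47 without D3133.2. The imprinted Mest was at 5.48, 12.2 and 4.65 at 0.033 mg/kg-day beside 2.04 to 7.43 in vehicle (0.84, SE 0.29), or 0.44 without D2256.3. Dcn, imprinted and also a transcript of stroma, was at 0.243, 7.86 and 2.11 at that dose beside 0 to 0.916 (1.64, SE 0.53), or 0.77 without D2256.3 and 1.28 to 3.18 over the other alternatives. The highest value of both was in D2256.3.

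Proliferation genes (43 tested) had medians of 0.11, -0.05 and -0.08 (0.16, 0.01 and -0.05 without D3133.2), and 34 of 43 had a negative slope. Ccne2, a cyclin of S phase entry, was at 212, 141 and 91.8 at 2 mg/kg-day beside 31.2 to 145 in vehicle (0.77, SE 0.34), or 0.47 without D1669.5. Glycolysis genes (21) were lower in 18 at 0.2 and 17 at 2 mg/kg-day, with medians of 0.06, -0.24 and -0.29. D3133.2 had the highest sum of the vehicle embryos, 3920 normalized counts, the next being 2840. Without it the medians were 0.17, -0.08 and -0.14. Pfkl, a phosphofructokinase, was at 2.21, 2.45 and 1.7 at 0.2 mg/kg-day, below the vehicle range of 2.49 to 8.42 (-0.85, SE 0.32). The top of that range is D3133.2, the next value being 4.96. Immediate early and heat shock genes (20) had medians of 0.08, -0.15 and -0.17 (0.14, -0.11 and -0.14 without D3133.2).

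Transcripts of macrophages, which the sort should have removed, were low in all libraries and lower at 0.2 and 2 mg/kg-day. Summed over 18 markers, vehicle embryos had 23 to 60.2 normalized counts (median 42.2). The 0.033 mg/kg-day embryos had 38.1, 49.1 and 13.8, those at 0.2 mg/kg-day 17.8, 24.5 and 11.3, and those at 2 mg/kg-day 20.5, 17.1 and 8.29. Only D1064.4 of the 6 embryos at 0.2 and 2 mg/kg-day reached into the vehicle range. Of 13 markers tested, 13 were lower at 0.2 and 12 at 2 mg/kg-day, with medians of -0.79 and -0.94 (-0.3 at 0.033), and 6 and 7 were lower at p under 0.05. Over all 13083 genes the medians were 0.01, 0 and -0.01 at the rising doses, and 189 and 392 genes were lower at p under 0.05 at 0.2 and 2 mg/kg-day. None of the markers was called. Without D3133.2 the medians were -0.19, -0.74 and -0.86. At 0.033 mg/kg-day the median was 0.04 without D3136.2 and -0.59 without D2256.3. The size also depends on the method at such low counts: over the other alternatives the median ran from -1.23 to -0.71 at 0.2 and from -1.81 to -0.65 at 2 mg/kg-day. In a bulk library fewer cells of a type and less RNA per cell cannot be told apart.

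C1qb, the most abundant marker and part of complement C1q (chr4:136880126-136886200), was at 2.75 to 10.3 in vehicle (median 6.55), at 4.87, 7.99 and 1.41 at 0.033, at 1.96, 3.14 and 0.848 at 0.2, and at 2.28, 1.02 and 0.846 at 2 mg/kg-day. The log2 difference at 2 mg/kg-day was -1.88 (SE 0.57), and at 0.2 mg/kg-day -1.51. All embryos at 2 mg/kg-day and 2 of 3 at 0.2 mg/kg-day lay below the vehicle embryos. C1qc, a second chain of C1q, differed by -2.02 at 2 mg/kg-day (SE 0.54), Fcer1g, a signalling chain of Fc receptors, by -1.65 (SE 0.46) and Lyz2, lysozyme, by -2.12 (SE 0.65). Csf1r, the receptor that defines the lineage, was at 0 in D1669.5 and D4028.2 and at 0.254 in D3620.3, beside 0.241 to 1.97 in vehicle. The chemokine Ccl4 (chr11:83648624-83664683), which macrophages make, had the lowest unadjusted p of any gene at 2 mg/kg-day. It was at 0.601 to 2.88 in vehicle (median 1.66), at 1.95, 1.55 and 1.27 at 0.033, at 2.7, 1.09 and 1.21 at 0.2, and at 0.24, 0.127 and 0 at 2 mg/kg-day. The log2 difference was -1.75 (SE 0.38, adjusted p = 0.81), with no overlap. As the 3 embryos hold 2, 1 and 0 reads, it ran from -3.69 to -1.22 over the other alternatives. Ccl3 differed by -1.13 (SE 0.48), or -0.7 without D4028.2, and by -1.94 to -0.8 over the other alternatives. The annotated spans of Ccl3 and Ccl4 overlap, and whether they share reads was not tested. Over the whole list of 11 chemokine and inflammation genes tested, these 2 included, 5 were higher at 2 mg/kg-day, with a median of 0. Ccl2 and Ccl7 were too low to test. The part of macrophage RNA in the values of Ccl3 and Ccl4 was not tested. Over all doses the macrophage median was -0.66 in XX and -1.06 in XY embryos. The difference between the sexes was 0.35 in the median, with 0 of 13 genes at p under 0.05. Other somatic lists were also lower in XY embryos, with medians of -0.8 for Sertoli, -0.99 for fetal Leydig and -0.78 for pregranulosa markers. Endothelial and stromal medians there were -0.1 and -0.37. In XX embryos the medians of these lists, in the same order, were 0.01, -0.11, -0.08, -0.11 and -0.3.

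**Figure D2:**
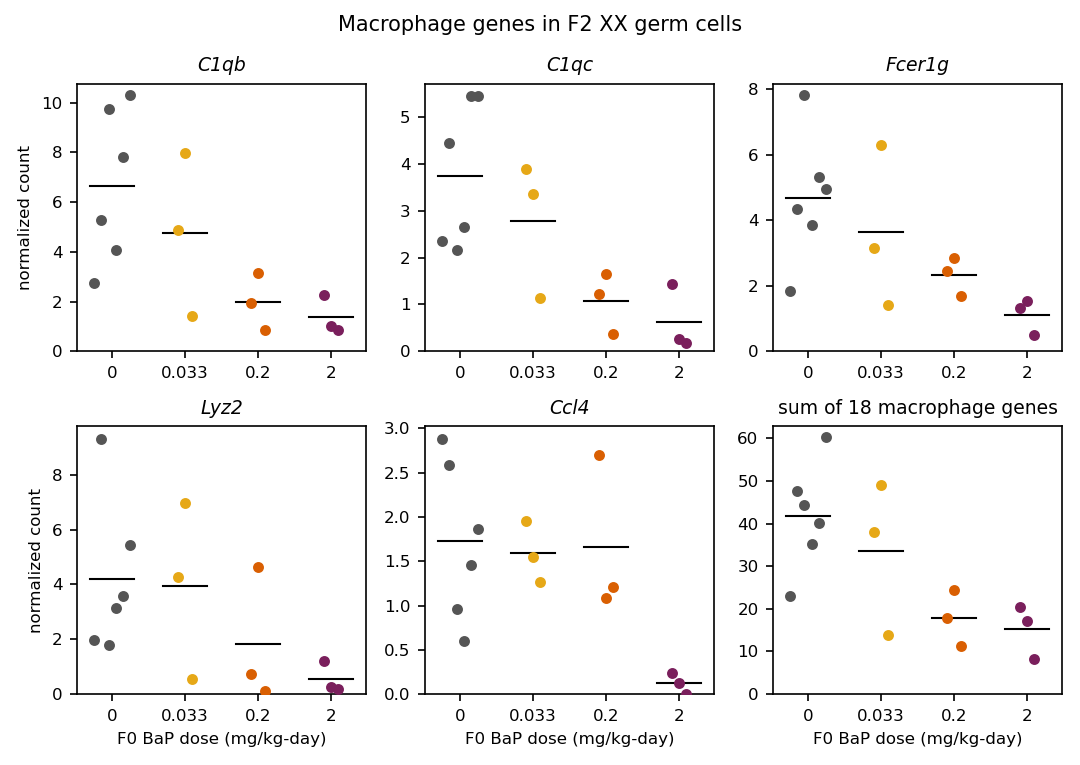
Normalized counts of 4 macrophage genes, of Ccl4 and of the sum over 18 macrophage markers (vertical axes from 0) in each F2 XX embryo, by dose of the F0 dam in mg/kg-day, where 0 is vehicle, each point is 1 embryo and each line a group mean. The sum is 23 to 60.2 in vehicle and 8.29 to 20.5 at 2 mg/kg-day.

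Globin transcripts were high in 6 libraries: all 3 at 0.033 mg/kg-day and 1 in each other group. Hba-a1 and Hba-a2, alpha globin genes with near identical values that may share reads, stood at 112 in vehicle embryo D2991.1 and at 1.99 or less in the other 5. Hba-a1 was at 115, 286 and 308 at 0.033, at 174, 1.5 and 1.7 at 0.2, and at 0.359, 171 and 1.52 at 2 mg/kg-day. Summed over 9 erythroid genes the values were 265, 659 and 687 at 0.033, with 390 in D1040.2 and 414 in D3620.3, and at most 4.4 in the other 4 exposed embryos. This sum and the median below count Hba-a1 and Hba-a2 as separate genes, although their recovered reads were the same in each F2 XX embryo. The median log2 difference of 6 erythroid genes, none of them called, was 3.84 at 0.033 mg/kg-day, 0.64 at 0.2 and 1.49 at 2 mg/kg-day. The median at 0.2 was -0.18 without D1040.2, and at 2 mg/kg-day -0.42 without D3620.3. Over the other alternatives it ran from 3.27 to 6.51, 0.55 to 1.94 and 1.32 to 1.88 at the rising doses. Beta globin (Beta-s) was at 0 in 5 vehicle embryos and at 34.4, 41.5 and 68.3 at 0.033 mg/kg-day.

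Transcripts of the support cells of the gonad were low. Pregranulosa markers (9 tested) summed to 4.55 to 17 in vehicle and 4.23 to 10.4 in exposed embryos, with medians of 0.05, -0.17 and -0.15. Rspo1, an ovarian signal, was at 0.73, 0.258 and 0.423 at 0.033 mg/kg-day, below the vehicle range of 0.962 to 2.28 (-1.17, SE 0.33, -1.84 to -0.86 over the alternatives). Wnt4 differed by -0.91 at 2 mg/kg-day (SE 0.36), or -0.56 without D1669.5, with overlap. Its vehicle range was 0.841 to 4.21, with D3133.2 at the top and the next value at 2.22. Sertoli markers (11 tested, led by Aard) summed to 14.7 to 31.6 in vehicle and 20.2 to 45.8 in exposed embryos, with medians of -0.05, 0.1 and -0.05. Endothelial markers (8) had medians of 0.19, -0.29 and -0.19, fetal Leydig markers (3) -0.06, -0.11 and -0.17, and stromal markers (4) -0.27, 0 and -0.51. Without D3133.2 the medians were 0.19, 0.1 and 0.14 for pregranulosa, 0.29, -0.15 and -0.08 for endothelial, -0.1, 0.08 and 0 for Sertoli, 0.18, -0.02 and 0.04 for fetal Leydig and -0.33, -0.07 and -0.56 for stromal markers.

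Few genes separated all exposed embryos from all vehicle embryos. One, Bbs12, was above in all 9 (0.00764% of 13083), and 5 were below (0.0382%): Ahdc1, Cebpb, Tmem104, Traf1 and Trp53i13. Leaving out an embryo can only add to such counts, and the most were 13 above without C4992.1 and 15 below without D2991.1. Bbs12 (chr3:37312547-37321450), a chaperonin-like gene of Bardet-Biedl syndrome, was at 3.66 to 5.58 in vehicle (median 5.19), at 7.54, 6.44 and 9.44 at 0.033, at 9.56, 6.14 and 6.78 at 0.2, and at 8.62, 9.77 and 6.6 at 2 mg/kg-day. Over all doses the log2 difference was 0.61 (SE 0.17). Trp53i13 (chr11:77508099-77515921), named as inducible by p53, was at 19.7 to 22.8 in vehicle (median 21.1), at 16.9, 17.4 and 16.6 at 0.033, at 17.2 and 13.8 in 2 embryos at 0.2 (the third also lay under the vehicle minimum), and at 13.9, 11.4 and 15.1 at 2 mg/kg-day. It differed by -0.44 over all doses (SE 0.11), by -0.65 at 2 mg/kg-day and by -0.31 at 0.033 mg/kg-day. Cebpb, a transcription factor of stress and myeloid genes, was at 8.65 to 14.2 in vehicle and at 5.33 to 7.95 in exposed embryos, with no order by dose (-0.67, SE 0.28). Traf1, a signalling adaptor, differed by -0.73 (SE 0.19, -1.1 to -0.55 over the alternatives), at values of 1.31 to 2.6 in vehicle and 0.254 to 1.23 in exposed embryos.

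**Figure D3:**
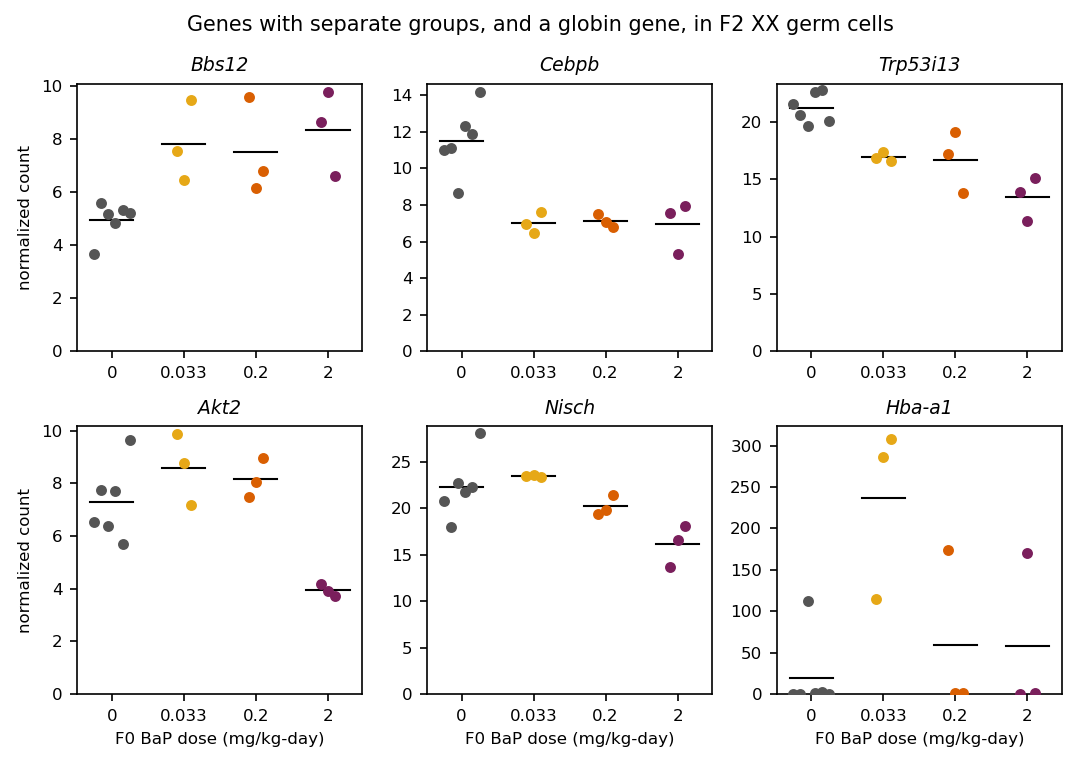
Normalized counts of 6 genes (vertical axes from 0) in each F2 XX embryo, by dose of the F0 dam in mg/kg-day, where 0 is vehicle, each point is 1 embryo and each line a group mean. Bbs12 lies above vehicle in all exposed embryos (6.14 or more against 5.58 or less) and Cebpb and Trp53i13 below. Akt2 is low at 2 mg/kg-day, Nisch falls in order of dose among the exposed embryos only, and Hba-a1 is high in 6 embryos.

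At single doses, groups that did not overlap were more numerous. The design fixes this direction, as a gene that separates all 9 exposed embryos also separates the 3 of each dose. Every embryo lay above all vehicle embryos in 177 genes at 0.033 mg/kg-day (1.35%), 115 at 0.2 (0.879%) and 109 at 2 mg/kg-day (0.833%). Every embryo lay below in 149 (1.14%), 111 (0.848%) and 187 (1.43%). Upper quartile scaling gave 166, 98 and 73 above and 177, 146 and 246 below. Without D3133.2 the counts above were 315, 166 and 130, and those below 328, 147 and 216, and dropping 1 of the 3 exposed embryos raised them to at most 681 (without D3136.2), 485 (without D1064.4) and 659 (without D1669.5). Akt2 (chr7:27591552-27640826), a kinase of insulin signalling, had the lowest unadjusted p of the slope (-0.59, SE 0.14). It was at 5.71 to 9.66 in vehicle (median 7.12), at 9.86, 8.76 and 7.19 at 0.033, at 7.48, 8.05 and 8.96 at 0.2, and at 4.19, 3.93 and 3.72 at 2 mg/kg-day. The 2 mg/kg-day embryos stand below all 12 others. The autophagy gene Atg16l1 differed by -0.74 at that dose (SE 0.21), Gmeb1 by -0.7 (SE 0.21) and Rbm14 by -0.68 (SE 0.2), each below vehicle without overlap. D3133.2 was the highest vehicle embryo in these genes (15.9, 14.1 and 22.7, the next being 11.7, 12 and 14.6). Erlec1, a lectin of the endoplasmic reticulum, was above vehicle at 2 mg/kg-day (24.2, 18.3 and 13.2 beside 5.33 to 12.9, log2 difference 0.79, SE 0.26). Chac2, an enzyme that degrades glutathione, was also above vehicle (41.4, 44 and 40.9 beside 11.4 to 34.4, 0.62, SE 0.24). The bottom of both vehicle ranges is D3133.2, without which the differences were 0.61 for Erlec1 and 0.37 for Chac2.

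At 0.033 mg/kg-day the kinase gene Map4k3 was at 23.2, 25.6 and 22.5 beside 11.4 to 16.5 in vehicle (0.68, SE 0.21). Fbxl15, of a ubiquitin ligase, was at 7.18, 7.86 and 9.86 beside 11.4 to 19.5 (-0.78, SE 0.26). At 0.2 mg/kg-day, Gtpbp6 was at 4.9, 4.23 and 6.18 beside 6.85 to 20.2 (-0.94, SE 0.28), and its overlapping neighbour Plcxd1, whose reads may be shared with it, at 5.02, 3.95 and 6.3 beside 7.21 to 17.6. The top of both of these vehicle ranges is D3133.2, the next values being 10.3 for Gtpbp6 and 10.6 for Plcxd1. All of these genes were chosen for their lack of overlap, so that lack supports nothing further.

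Very few genes followed the dose in every embryo. In 5 genes (0.0382%) each embryo at a higher dose lay above each at a lower one: Chrna5, Dzip1l, Eif2b3, Vps36 and Zdhhc8. In 9 (0.0688%) the order fell, among them C2cd2, Gm5088, Klhl21, Nisch and Tceb3. Upper quartile scaling gave 3 rising and 13 falling. With 1 exposed embryo left out the counts reached at most 48, rising without D4028.2 and falling without D3136.2. Nisch, a cytoskeletal regulator, was at 23.5, 23.6 and 23.4 at 0.033, 19.4, 19.8 and 21.4 at 0.2, and 13.7, 16.6 and 18.1 at 2 mg/kg-day, with a slope of -0.3 (SE 0.12). Vehicle embryos spanned 18 to 28.1 (median 22), and the top of that range is D3133.2. The next highest vehicle embryo was at 22.7, below all 3 embryos at the lowest dose. Klhl21, an adaptor of a ubiquitin ligase in mitosis, was at 6.21, 5.54 and 8.88, then 5.15, 4.91 and 4.84, then 3.59, 4.31 and 4.4, beside 4.45 to 8.42 in vehicle (slope -0.36, SE 0.15). Vps36, of the ESCRT sorting machinery, had values so close (63.3 to 64, 64.2 to 64.9 and 65.8 to 73.6) that its slope was 0.07. Taking the mean of each dose only, 2642 genes (20.2%) fell and 2382 (18.2%) rose in the order of doses, among 6 possible orders that held 1637 to 2642 genes each.

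**Figure D4:**
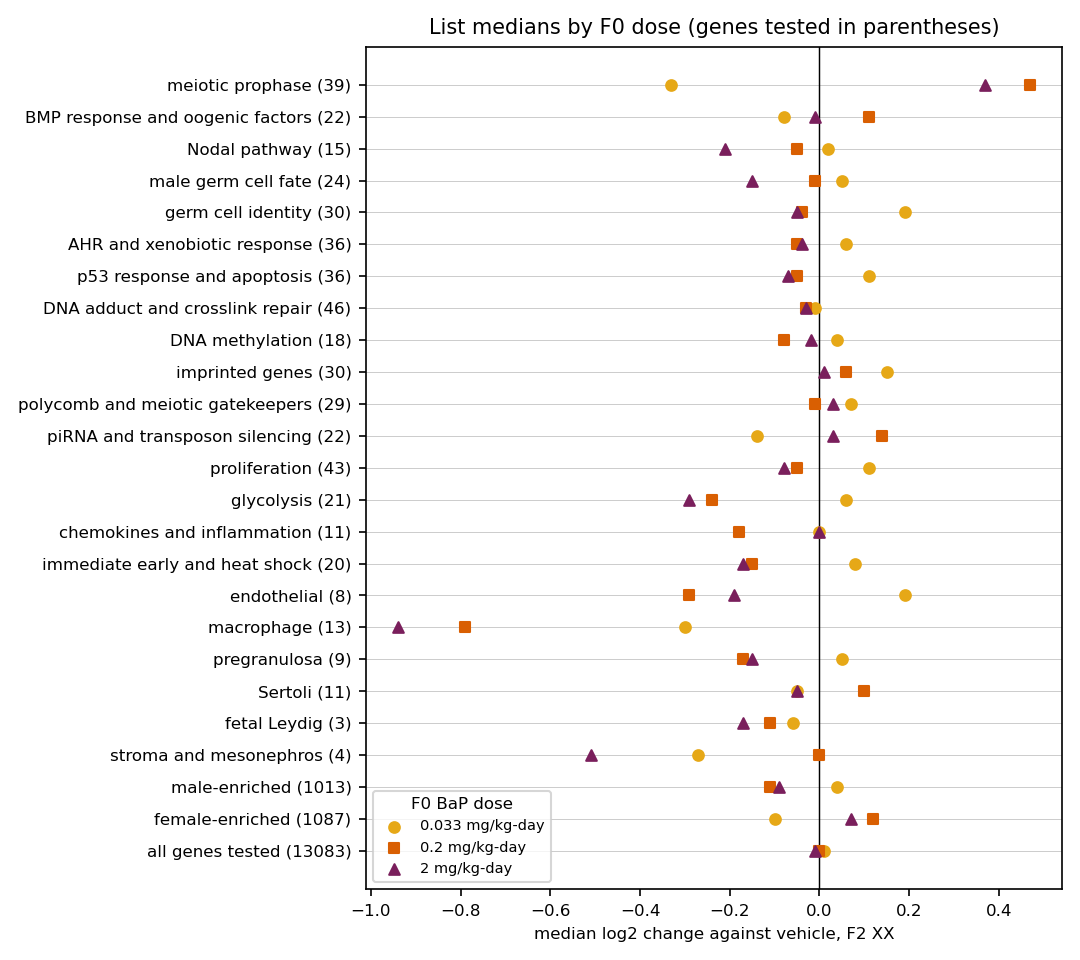
Median log2 difference from vehicle at each dose for each gene list, with the value over all genes tested. Meiotic prophase lies at -0.33, 0.47 and 0.37 and macrophage markers at -0.3, -0.79 and -0.94; erythroid, Y-linked and Xist lists are left out.

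The differences from XY embryos and from other generations were tested gene by gene. For XX minus XY over all doses, limma called 0 of 13083 genes (0%), with 455 at p under 0.05 (edgeR quasi-likelihood 492, likelihood ratio 560, DESeq2 529, none called). Trp53i13, for example, differed from vehicle by -0.44 in XX and by 0.03 in XY embryos, a difference that was not called. For F2 minus F1 in XX the counts were 0 called (0%) and 155 at p under 0.05 of 13288 genes, and for F2 minus F3 0 (0%) and 538, where 664 make up 0.05 of the genes; these generation differences were run with limma alone. The F1 embryos also had the shorter dosing of their dams, so generation and length of dosing cannot be told apart in F2 minus F1.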

How the data were processed

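RNA-seq of FACS-enriched PGCs from 30 F2 embryos was used (15 XX, the subject, and 15 XY), with the F1 and F3 embryos for differences between generations and for the sex-enriched lists (vehicle embryos, over 2-fold at an adjusted p under 0.05). Each signal value is a read count per gene scaled to the library size, made by the authors with Trim Galore, STAR (mm10), exon counting and edgeR's TMM normalization, deposited with versions not stated. Of nonzero F2 values, 100% were within 0.05 read of a whole multiple of 1 step per embryo, so reads were recovered for count tests. All columns were mapped to embryos (0 not mapped). Coordinates are from RefSeq GRCm38.p6, the build of mm10.

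The genes whose mean over the fit reached 0.5 went into limma 3.58.1 with trend, on log2(value + 0.5), in 1 fit of 8 F2 sex-by-dose groups, two-sided, with Benjamini-Hochberg adjustment over 13083 genes (13288 in the fit of all generations). Alternatives were pseudocounts of 0.1 and 1, no minimum and a minimum of 5, upper quartile scaling, edgeR 4.0.16 (quasi-likelihood and likelihood ratio), DESeq2 1.42.0, XX embryos alone, dam as a block (correlation 0.0532), depth as a covariate, dose rank, and leaving out each embryo. R 4.3.3 and Python 3.11.15 were used, and the code was tested on simulated data.

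Named genes are those in 1 of 25 lists, or with a mean of at least 5 and no overlap with vehicle, that differed at least 1.5-fold at an unadjusted p under 0.05 (by smallest p, at most 5 in each direction, 4 for a list). Added to them were genes with a mean of at least 5 whose doses followed in order without overlap (at most 5 in each direction by largest slope, with no limit of fold or p), the most abundant member of each list and a fixed set of fate and marker genes. Ahdc1, Tmem104, Traf1, Chrna5, Dzip1l, Zdhhc8 and Cpa3 fall outside that rule and were named after their values were seen. Members and lists were chosen with earlier results of these data known. List genes absent from the table were not analysed here.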

Additional observations from a re-analysis of the deposited data

Results flagged for a closer look

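Among the 6 vehicle XX embryos, 27 of 163 values had 1 embryo far from the other 5, by its gap to the nearest of them over the whole range. Chance flags about 1 in 20 groups of values that were not selected. Many of the genes looked at were named for differences from these same 6 embryos, and values of 1 embryo are not independent of each other. The 27 of 163 therefore cannot be judged against that rate.

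Most belonged to D3133.2. It was highest for Arnt (12.6 normalized counts, the next 6.54), Dnd1 (58.3, next 27.3), E2f1 (19.6, next 10.7), Fgd1 (21.1, next 11.6), Gtpbp6 (20.2, next 10.3) and its neighbour Plcxd1 (17.6, next 10.6). It was also highest for Mbd3 (121, next 69.7), Pecam1 (56.6, next 33.2), Rbm14 (22.7, next 14.6) and Xist (2.11, next 0.481). Its summed levels were highest for glycolysis (3920, next 2840), endothelial (84.9, next 56), fetal Leydig (7.93, next 3.72) and Xist (3.96, next 0.916) genes. It was lowest for Chac2 (11.4, next 29.8), Erlec1 (5.33, next 10.3), the Sertoli sum (14.7, next 25.6) and the median correlation with the other XX embryos (0.931, next 0.977).

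D2991.1 was highest for the globins Beta-s (16.6, next 0), Hba-a1 and Hba-a2 (112 each, next 1.99) and Hbb-b1 and Hbb-b2 (14.7 each, next 0), whose pairs may share reads, for the erythroid sum (242, next 5.18) and for Cpa3 (16, next 0). C4988.3 was highest for Ddx3y (0.131, next 0, which is 1 read) and Tex15 (150, next 85.3).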

How the results depend on the processing

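For F2 XX against vehicle, the dose slope and XX minus XY, 0 genes were called in every alternative except DESeq2 for all doses, which called 1 (Cpa3). Over the alternatives, 394 counts stayed within 1.5 times the value reported and 159 did not. Of the list medians 3463 stayed within the spread between embryos and 39 moved beyond it. Among values for named genes, 16800 kept their direction or lay within 1 SE of 0 as reported. In 9, leaving out 1 embryo changed the sign, and the cause was not tested. Without D1669.5 the slope was -0.03 for Ccdc92 (range over embryos left out -0.03 to 0.24), -0.01 for Fbxl15 (-0.01 to 0.41) and -0.03 for Tex15 (-0.03 to 0.54), and the log2 difference at 2 mg/kg-day was -0.06 for Figla (-0.06 to 0.94), -0.05 for Meiob (-0.05 to 1.33) and 0.03 for Lefty1 (-0.64 to 0.03). Without D3133.2 the difference over all doses was -0.01 for Chac2 (-0.01 to 0.3) and -0.04 for Sycp3 (-0.04 to 0.58), and without D4028.2 the slope of Lefty1 was -0.01 (-0.01 to 0.39). If the number in the embryo name is the dam, each embryo stands for 1 litter. Differences between litters and between embryos of a dose then cannot be told apart. On that reading the labels do not give the F0 dam, the animal that was dosed. Embryos of 1 dose may share an F0 dam, and the SEs and p-values treat them as independent. At 0.103 to 0.169 per read, a gene under 1 rests on fewer than 10 reads, and its fold depends on the pseudocount.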
